A study of Arabidopsis thaliana with 34 samples.

Results

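The homozygous pAP146 seedlings of Arabidopsis thaliana carry a deletion of about 684 kb on chromosome 3, and their RNA was compared here with that of Col-0 seedlings, the wild-type accession in which the line was made. The 4 homozygous samples and the 7 pools of Col-0 seedlings, 4 collected in the evening (t1) and 3 in the morning (t2), are 11 of the 34 samples of the series. Of 27538 genes in the tables, 21194 had enough reads to be tested, and 17320 of these differed from Col-0 with the same sign at both time points, 8990 with a higher and 8330 with a lower level. Only such genes were kept as results. Of them, 4189 were higher and 3807 were lower with an adjusted p under 0.05 against each time point (edgeR's quasi-likelihood test, with Benjamini-Hochberg adjustment over all genes tested), and these are called higher or lower below. Levels are given as TPM, the length-scaled share of a library's transcripts that salmon gives each gene, and fold changes come from a model of the estimated read counts.

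The 2 sides of the comparison come from different experiments. The homozygous samples are T3 seedlings of 1 line that descends from 1 T2 plant, made with a vector that expresses SaCas9, a small Cas9 nuclease, from a promoter active in egg cells together with 2 guide RNAs. Homozygotes have severe growth defects, are sterile and develop late, and for that reason seedlings were taken where leaves of single plants were taken from the other pAP146 groups (4 untransformed Col-0 plants, 4 wild-type siblings and 3 heterozygotes). The Col-0 seedlings carry no transgene, were raised on plates of Murashige and Skoog medium for an experiment on time of day, and were pooled before RNA extraction. The medium and the hour of collection of the homozygous seedlings are not given in the sources used here. Both experiments used long days. The age of the Col-0 seedlings and of the leaves is given only as an approximate number of weeks, and that of the homozygous seedlings is not given in the sources used here. Deletion, line, experiment, growth conditions and developmental stage therefore cannot be told apart in any difference below. Leaf values of the pAP146 experiment are set beside the seedling values, since they share the experiment with the homozygous seedlings but not the organ.

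Syntenic blocks are stretches of chromosome that a whole-genome duplication left in a pair of copies with genes in the same order. Most duplicated genes have since lost one copy, and those that keep both are called retained paralogues. A deleted gene with a retained paralogue may still have a similar protein in the cell, while most genes of a block have no such syntenic partner. With tandem duplicates and wider gene families counted too, the paper reports a paralogue for most genes of the deleted blocks.

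The deletion lies between the cuts of 2 SaCas9 guides, whose target sites are shown here because they set its limits. Both sites are on the plus strand of chromosome 3 of TAIR10.1, at chr3:14955281-14955301 and chr3:15639150-15639170, and the capitals mark the 6 bases of the protospacer adjacent motif that SaCas9 needs.
spacer1: gcgatgagaaaccttcatctaCAGGGT
spacer2: gaaggcatagttgtcccatatTTGGGT
With a cut 3 bases before the motif, the breaks fall after positions 14955298 and 15639167, which leaves out 683.869 kb. Of the 60 genes listed for the block, 59 lie wholly between the breaks and 1, PRK3 (AT3G42880), a pollen receptor kinase, is cut by the left break.

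Transcripts of the deleted genes were close to undetectable in the homozygous seedlings. Their summed level was 0.122, 0.118, 0.0719 and 0.154 TPM in homozygous replicates 1 to 4, against 332.8 ± 10.7 TPM (SD, n = 4) in Col-0 at t1 and 348.7 ± 7.30 TPM (SD, n = 3) at t2. The difference had p = 0.02857 against t1 and p = 0.05714 against t2 in 2-sided exact permutation tests. Each is the smallest p that the number of samples allows. The genotype fixed this outcome, so the tests only checked the labels. Each homozygous library held 6 to 7 estimated counts over all 60 genes, and no gene had more than 5 in 1 library. The counts were spread over 9 genes and included MEE38 (AT3G43160), the 1 of 21 tested genes of the deletion that was not called, at 0.0441 to 0.114 TPM in homozygous seedlings and 0.0834 to 0.593 TPM in Col-0. PRK3 had 4 counts in the homozygous libraries and none in Col-0.

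Of the deleted genes, 19 reached a mean of 1 TPM in Col-0 seedlings, and 14 of these had no count in any homozygous library. Where a group is at 0, the fold is a lower bound against a floor of 3 counts per library. LTPG2 (AT3G43720), a GPI-anchored lipid transfer protein of wax export to the cuticle, was the most abundant, at 80.1 to 145 TPM (median 103) in the Col-0 pools, so that it was at least 627-fold lower than t1 and at least 925-fold lower than t2. AT3G43540, which encodes a protein of unknown function, stood at 29.9 to 35.5 TPM (median 32.7) in Col-0 and was at least 504-fold lower. AT3G43240, an ARID-domain DNA-binding protein, was at 6.83 to 11.8 TPM (median 10.3) in Col-0 and at least 257-fold lower. These bounds say how deep the libraries are, not how much transcript was left.

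Several of the lost transcripts belong to known pathways. JAZ11 (AT3G43440), a repressor of jasmonate signalling, had 9.07 to 12.9 TPM in Col-0 seedlings and no count in the homozygous ones. TES (AT3G43210), a kinesin needed for cytokinesis after male meiosis, had 1.53 to 2.69 TPM in Col-0 and was at least 81.4-fold lower. ATMIN7 (AT3G43300), an ARF exchange factor of vesicle traffic that a bacterial effector degrades, had 8.02 to 13.3 TPM in Col-0 and 4 estimated counts over all 4 homozygous libraries. AAO2 (AT3G43600), an aldehyde oxidase, had 9.56 to 14.5 TPM in Col-0 and 1 count, and SUS4 (AT3G43190), a sucrose synthase, had 0.636 to 2.62 TPM and no count. The plot of levels along the region shows these transcripts lost between the breaks and expressed genes beyond both. PRK3 at the left break and AT3G42870 next to it had no reads in Col-0 seedlings, so the plot does not place the left end exactly.

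**Figure D1:**
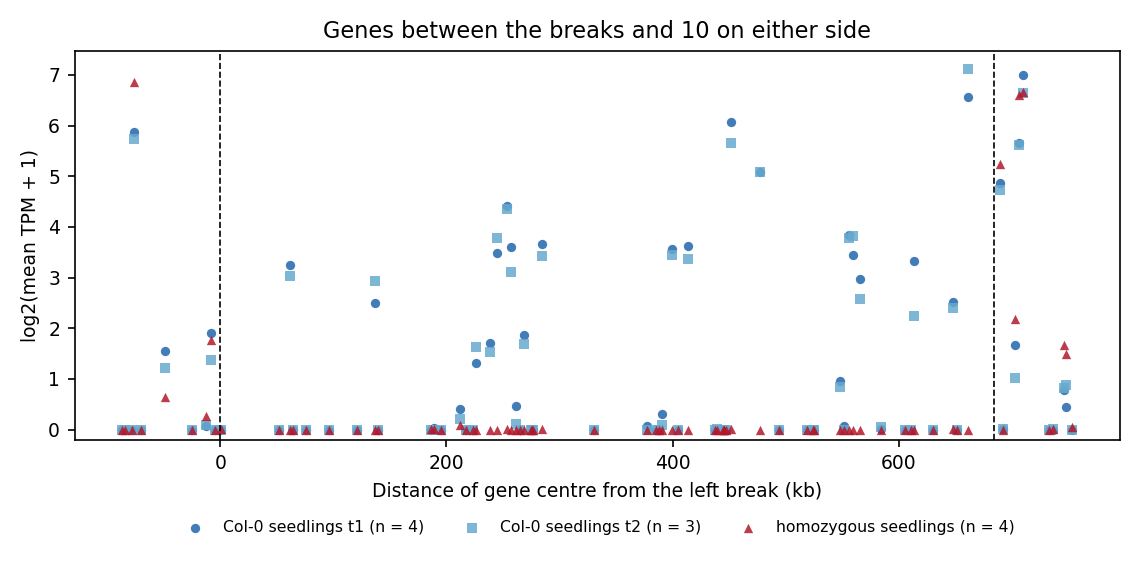
Level of each gene between the breaks and of the 10 genes on either side, as log2 of mean TPM plus 1, against the distance of the gene's centre from the left break in kb. Circles are Col-0 seedlings at t1 (n = 4), squares Col-0 at t2 (n = 3) and triangles homozygous seedlings (n = 4), and dashed lines mark the breaks. The triangles lie at or near 0 between the lines, and beyond them AL3, GSTU27 and CAM7 are expressed in all 3 groups.

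Next to the deletion, 6 flanking genes were higher and 1 was lower. Of the 10 annotated genes on each side, 10 of the 20 could be tested, and the others had almost no reads. AL3 (AT3G42790), an Alfin-like protein with a PHD finger that binds histone H3, lies 75.5 kb left of the deletion and had 126, 141, 118 and 76.8 TPM in homozygous replicates 1 to 4 against 51.2 to 59.8 TPM (median 56.2) in Col-0. All 4 homozygous values lay above the Col-0 range. Its log2 fold changes, given as here with their standard errors, first against t1 and then against t2, were 1.01 ± 0.18 (adjusted p = 0.000800) and 0.96 ± 0.19 (adjusted p = 0.00187). In leaves of the same experiment AL3 stood at 35.8 to 43.9 TPM in Col-0 and at 42.4 to 52.6 TPM in heterozygotes.

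On the right side, AT3G43740, a leucine-rich repeat protein whose gene starts 4.842 kb from the break, had 38.2, 40.2, 36.6 and 33.2 TPM against 24.9 to 28.8 TPM in Col-0. Its log2 fold changes of 0.39 ± 0.10 and 0.33 ± 0.11 passed the test (adjusted p = 0.00683 and 0.0224), and the call against both time points was lost without Col-0 t2 replicate 1 or 2. GSTU27 (AT3G43800), a tau class glutathione transferase, had 83.1, 128, 99.5 and 72.0 TPM against 42.8 to 51.5 TPM, with log2 fold changes of 0.94 ± 0.16 and 0.81 ± 0.18 (adjusted p = 0.000713 and 0.00299). ZIFL2 (AT3G43790), a membrane transporter, was higher by 0.67 and 1.58 on the log2 scale.

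AT3G42850 and AT3G43840 were higher at low levels, with homozygous values of 0.169 to 0.289 TPM and 1.33 to 2.68 TPM, and the second call was lost without any of 6 libraries (homozygous replicates 1, 3 and 4 and each Col-0 t2 replicate). AT3G42800 was lower, at 0.433 to 0.827 TPM against 1.05 to 2.16 TPM in Col-0. AT3G42860, CAM7 (AT3G43810), which encodes a calmodulin, and AT3G43850 were not called. The 6 of 10 tested flanking genes called higher stand beside 19.8% of all tested genes called higher.

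Among the 14 retained paralogues of deleted genes, 10 were tested, 1 was higher and 1 was lower, where 19.8% and 18.0% of all tested genes were called higher and lower. The lower one was AT5G20790, an uncharacterized protein whose partner AT3G43110 is deleted. It had 0.158, 0.119, 0.612 and 0.0497 TPM in the homozygous seedlings, while Col-0 had 68.9 to 95.9 TPM at t1 and 25.2 to 46.7 TPM at t2. The groups were far apart, with log2 fold changes of −8.35 ± 0.46 (adjusted p = 5.63e-07) and −7.46 ± 0.46 (adjusted p = 9.22e-07). In leaves of the same experiment AT5G20790 was also low, at 0.948 to 6.31 TPM in Col-0, 0.904 to 4.63 TPM in siblings and 0.515 to 0.830 TPM in heterozygotes, and the homozygous seedlings lay below Col-0 leaves too (log2 fold change −4.46).

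The higher paralogue was BPM5 (AT5G21010), an adaptor of CUL3 ubiquitin ligases and the partner of BPM6. It had 8.93, 10.4, 11.5 and 11.7 TPM against 7.19 to 9.28 TPM in Col-0, an overlap of 1 homozygous value with the highest pools. Its log2 fold changes were 0.22 ± 0.08 (adjusted p = 0.0358) and 0.28 ± 0.09 (adjusted p = 0.0199). The call was lost without homozygous replicate 3 or 4, Col-0 t1 replicate 2, 3 or 4, or Col-0 t2 replicate 1 or 2.

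The remaining tested paralogues were not called in 1 direction against both time points. JAZ12 (AT5G20900), partner of JAZ11 and also a jasmonate repressor, was the most abundant paralogue, at 88.5, 113, 116 and 109 TPM against 86.9 to 98.8 TPM at t1 and 62.3 to 69.5 TPM at t2. It passed the test against t2 (log2 fold change 0.49 ± 0.10, adjusted p = 0.00168) and not against t1 (0.21 ± 0.09, adjusted p = 0.0610), which it also passed without homozygous replicate 1 (adjusted p = 0.0270), without Col-0 t1 replicate 4 (0.0357), with all 34 samples (0.0337) and with DESeq2 (0.0482). AT5G20840, partner of the deleted phosphoinositide phosphatase AT3G43220, passed both tests in opposite directions, 0.39 ± 0.08 against t1 (adjusted p = 0.00248) and −0.29 ± 0.09 against t2 (adjusted p = 0.0176).

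SUS1 (AT5G20830), AAO3 (AT2G27150), which makes abscisic acid, AT2G27130, the partner of LTPG2, AT5G20810 and AT5G20885 passed neither test. AT2G27130 had 8.15, 7.28, 12.7 and 20.4 TPM against 7.29 to 8.56 TPM in Col-0, and differed from t1 by 0.55 ± 0.26 on the log2 scale (adjusted p = 0.0935), so the libraries with more of it were homozygous replicates 3 and 4. AT5G20860 was lower against t1 alone.

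Summed over all 14, the paralogues reached 148.4, 179.1, 201.6 and 196.4 TPM in the homozygous seedlings, 237.9 ± 14.9 TPM (SD, n = 4) in Col-0 at t1 and 165.7 ± 5.81 TPM (SD, n = 3) at t2. The homozygous mean minus that of t1 was −56.6 TPM (2-sided exact permutation p = 0.02857, the smallest possible, and 0.1429 for the same total as TMM-normalized CPM), and it was 15.7 TPM higher than t2 (exact permutation p = 0.3429). AT5G20790 alone had a mean of 0.235 TPM against 81.5 TPM at t1, a difference larger than the whole gap. Without that gene, taken out after its value was seen, the homozygous total was 24.7 TPM above t1 (exact permutation p = 0.1429). It was then 53.4 TPM above t2 (exact permutation p = 0.05714, the smallest possible). Without JAZ12 instead, the homozygous mean minus that of t2 was −25.0 TPM, with the same exact permutation p of 0.05714.

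Before the wider comparison, the libraries themselves differed in ways that touch several results. Libraries held 26640177 to 42013739 estimated counts, fewest in homozygous replicate 4. The first principal component, with 57.8% of the variance, placed the homozygous seedlings at 127, 121, 106 and 59.8 and all Col-0 pools between −66.1 and −53.6, and the second, with 14.6%, separated t1 from t2. Within groups, the correlation of log2(TPM + 1) across genes was 0.9544 to 0.9864 between homozygous seedlings and at least 0.9933 between Col-0 pools of 1 time point. The 23 root markers summed to 45.8, 94.5, 181 and 295 TPM in homozygous replicates 1 to 4, to 143.6 to 203.8 TPM in Col-0 seedlings and to 13.1 to 17.2 TPM in Col-0 leaves. COBL9, a root hair gene, was at 0.00909 TPM in homozygous replicate 1 and at 0.803 to 1.26 TPM in Col-0 seedlings. Of the 23, SHR and NRT2.1 were called higher and SCR lower, the last lost without any of 9 libraries, while 8 were lower without homozygous replicate 4 and 5 higher without replicate 1. Homozygous replicate 1 thus held the least root transcript and replicate 4 the most, and replicate 4 also had the lowest levels of the defence genes described next. The counts of called genes were repeated without each. Fewer cells of a type and less RNA per cell cannot be told apart in such samples.

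The seedlings differed over much of the transcriptome. Against t1, 5858 genes were higher (27.6% of those tested) and 5516 lower (26.0%), and against t2, 5753 were higher (27.1%) and 5402 lower (25.5%). Both tests agreed for 4189 higher genes (19.8%) and 3807 lower genes (18.0%), with median log2 fold changes of 0.98 and 1.097 for the first and −0.81 and −0.84 for the second, where the median over all tested genes was 0.03 and 0.02. In 3287 of the higher and 2439 of the lower genes no homozygous value overlapped the range of the 7 Col-0 pools. A difference of at least 2-fold against each time point was seen for 1837 higher (8.67%) and 1201 lower genes (5.67%). Without homozygous replicate 4, 3875 of the higher and 3548 of the lower genes were still called, and without replicate 1, 3730 and 3523. A further 410 genes passed both tests in opposite directions, 214 of them higher than t1 and lower than t2 and 196 the reverse.

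Members of 28 gene lists were counted against this background, in which 19.8% of all tested genes were called higher and 18.0% lower. The lists and members were chosen with earlier results of these data known, so their shares are no independent support for a pathway. The plot of list medians gives the 27 with more than 1 tested gene. Salicylic acid and defence genes, mitotic genes, phosphate starvation genes, nitrate assimilation genes and heat shock genes had the largest shares called in 1 direction among lists with over 5 tested genes.

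**Figure D2:**
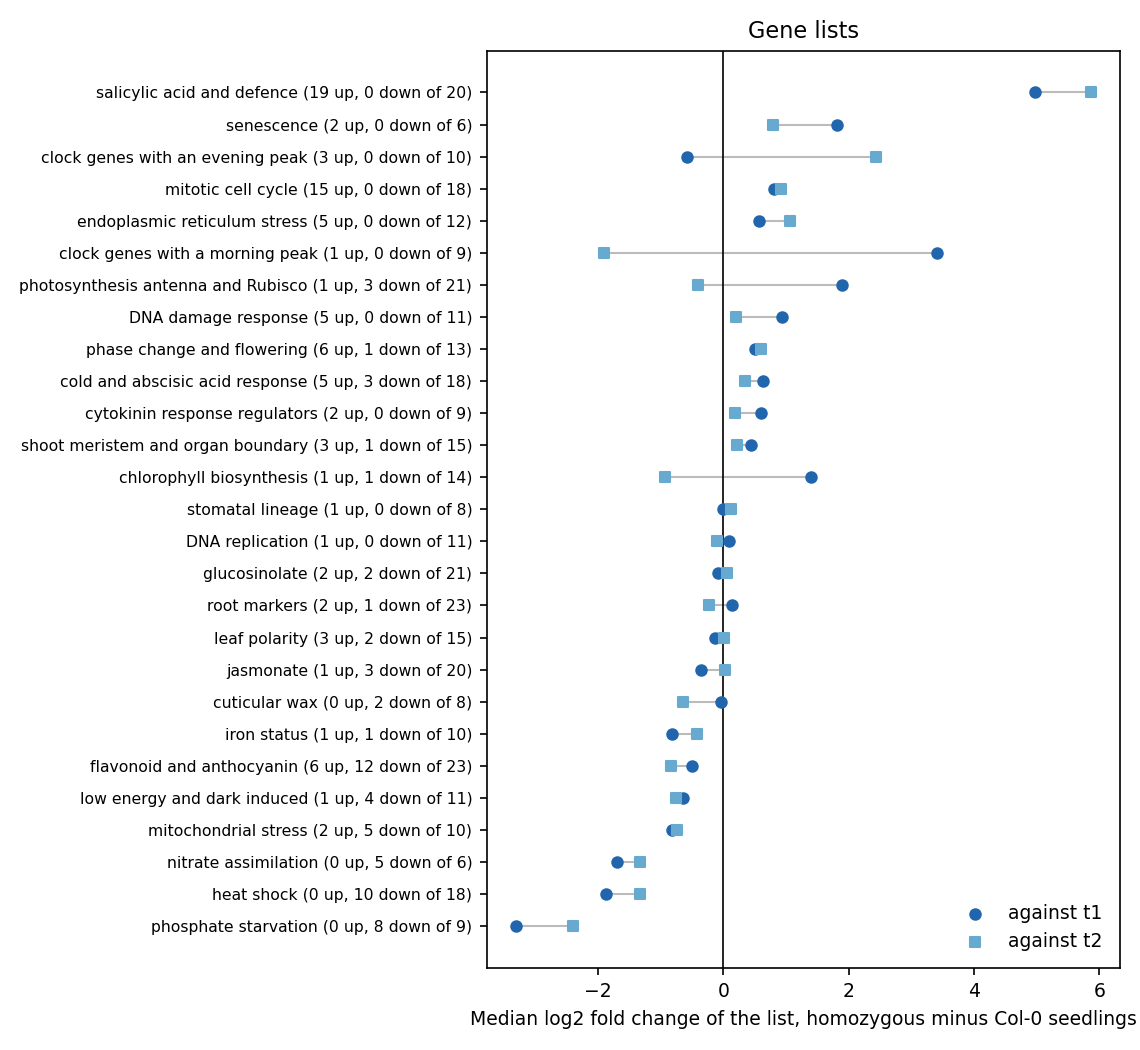
Median log2 fold change of each gene list with more than 1 tested gene (27 of 28), homozygous minus Col-0 seedlings, on the horizontal axis, with circles for the comparison with t1 and squares for that with t2. Labels give the members called higher and lower against both time points and the number tested. The 20 defence genes lie furthest right (4.98 and 5.87) and the 9 phosphate starvation genes furthest left (−3.31 and −2.40), and the clock lists change side between the time points.

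Salicylic acid and defence genes were higher almost throughout. Salicylic acid is a hormone that plants make on attack by biotrophic pathogens, and it acts through NPR1 to switch on the pathogenesis-related (PR) genes. Of 20 list members, 19 were higher and none lower, where 19.8% of all tested genes were higher, and the median log2 fold changes were 4.98 and 5.87. Summed, the list stood at 2531, 4701, 3344 and 218.4 TPM in homozygous replicates 1 to 4, at 52.34 to 104.8 TPM (median 76.85) in the Col-0 pools and at 122.1 to 225.7 TPM in Col-0 leaves. Replicate 4 was thus above every Col-0 pool, but within the leaf range and far below the other homozygous seedlings. Without it all 20 members were higher, with medians of 5.37 and 6.26.

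The regulators at the head of the pathway were all higher. ICS1, the enzyme that makes most pathogen-induced salicylic acid, had 38.2, 47.3, 39.5 and 13.1 TPM against 2.60 to 5.56 TPM in Col-0. SARD1 (AT1G73805), a transcription factor that switches on ICS1, had 104, 120, 127 and 17.44 TPM against 0.276 to 1.48 TPM (median 0.993), and its log2 fold changes were 6.38 ± 0.60 (adjusted p = 1.67e-05) and 7.83 ± 0.76 (adjusted p = 1.76e-05). Its relative CBP60G had 41.8, 50.1, 63.8 and 15.2 TPM against 2.15 to 5.38 TPM. Every homozygous value of these 3 genes lay above every Col-0 pool, with replicate 4 the lowest.

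PAD4, EDS1 and SAG101 encode lipase-like proteins that pass on signals of intracellular immune receptors. PAD4 had 79.0, 117, 88.3 and 19.1 TPM against 1.69 to 3.76 TPM in Col-0 (log2 fold changes 4.53 ± 0.48 and 4.89 ± 0.56, adjusted p = 3.42e-05 and 5.06e-05). EDS1 had 53.3, 77.0, 58.0 and 16.6 TPM against 5.83 to 8.38 TPM. SAG101 had 22.1, 35.4, 34.9 and 17.7 TPM against 4.38 to 8.19 TPM, the smallest of the 3 changes (1.98 ± 0.22 and 2.32 ± 0.25). NPR1, the salicylic acid receptor, was higher by 1.51 and 1.82 on the log2 scale.

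Output genes of the pathway were among the most changed transcripts of the seedlings. PR1 had 405, 1749, 1184 and 1.16 TPM in homozygous replicates 1 to 4 against 0 to 0.895 TPM (median 0.292) in the Col-0 pools. Its log2 fold changes were 10.88 ± 1.78 (adjusted p = 0.000560) and 11.91 ± 2.19 (adjusted p = 0.00115), but replicate 4 hardly exceeded the highest pool. PR1 varied in the leaves as well, from 7.51 to 49.5 TPM in Col-0, 0 to 49.7 TPM in siblings and 20.4 to 215 TPM in heterozygotes. PR2 (BGL2, AT3G57260), a glucanase that attacks fungal walls, had 275, 672, 448 and 28.0 TPM against 0.177 to 0.487 TPM (log2 fold changes 10.104 ± 1.02 and 10.06 ± 1.16), and WRKY70, a transcription factor between the salicylic acid and jasmonate pathways, had 534, 425, 437 and 33.9 TPM against 2.49 to 4.90 TPM. ACD6, an ankyrin membrane protein that raises salicylic acid, was the 1 member not called, since replicate 4 had 0.997 TPM where the other 3 had 69.2 to 106 TPM and Col-0 had 6.26 to 29.5 TPM.

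W-boxes, the TTGAC sites that WRKY factors bind, were counted in the 300 bases from 250 before to 50 after each gene's annotated start, on both strands. They were found in 12 of 20 windows of the defence list (60.0%), in 50.5% of all 27354 windows and in 59.7% of the windows of genes called higher and at least 2-fold. TTGAC followed by G also holds the TGACG core that TGA factors bind. The window of SARD1, the list member with the most matches (4), is shown with its matches in capitals, a reverse-strand match reading GTCAA. It lies on the minus strand of TAIR10.1 at chr1:27749199-27749498.
SARD1: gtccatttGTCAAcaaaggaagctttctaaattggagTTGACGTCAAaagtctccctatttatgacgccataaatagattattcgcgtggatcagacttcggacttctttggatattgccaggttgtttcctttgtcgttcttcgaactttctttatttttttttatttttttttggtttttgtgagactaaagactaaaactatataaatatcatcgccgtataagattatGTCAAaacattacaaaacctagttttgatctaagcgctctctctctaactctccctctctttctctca

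The 12 largest increases outside the deletion, taken from called genes without overlap whose higher group averaged 5 TPM or more, were in part the same kind of gene. Besides PR1 and PR2 they held WRKY38, with 52.3, 77.3, 57.8 and 0.176 TPM against 0 to 0.0763 TPM, whose call was lost without homozygous replicate 1, 2 or 3. PNP-A, a secreted peptide related to expansins, had 304, 770, 492 and 33.1 TPM against 0.349 to 1.18 TPM (log2 fold changes 9.15 ± 0.99 and 9.02 ± 1.13). CRK37, a cysteine-rich receptor-like kinase, had 8.14, 19.1, 10.9 and 1.28 TPM against 0 to 0.0464 TPM. In each of these the lowest homozygous seedling was replicate 4.

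AT2G44240, a protein of unknown function, had 15.2, 25.5, 48.2 and 0.357 TPM and no count in Col-0, so that it was at least 433-fold higher than t1. AT2G34317, annotated as an avirulence induced family protein, had 1.85, 13.2, 20.19 and 9.05 TPM with none in Col-0 seedlings or in any leaf library of the experiment, at least 69.8-fold higher than t1, and here replicate 1 was lowest. AT5G22555, at 0.879 TPM or more with none in Col-0, was called with all libraries and lost without homozygous replicate 2, 3 or 4. The other 4 were AT5G63225, AT3G28510, AT3G60470 and AT5G26690, of which AT5G26690, a heavy metal-associated domain protein, was the most abundant at 119, 167, 62.7 and 9.08 TPM against 0 to 0.515 TPM.

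The endoplasmic reticulum, where secreted proteins fold, shares part of this pattern. In its stress list 5 of 12 members were higher and none lower, where 19.8% of all tested genes were higher. Without homozygous replicate 4, 8 were higher. The list summed to 1451, 2143, 1140 and 745 TPM against 475 to 939 TPM in Col-0, so that replicate 4 lay within the Col-0 range. BIP3, a stress-induced lumenal chaperone, had 26.6, 60.4, 18.6 and 2.09 TPM against 0.0961 to 0.309 TPM in Col-0, with log2 fold changes of 7.22 ± 0.96 and 6.88 ± 1.07 (adjusted p = 0.000148 and 0.000396). ERDJ3B, a co-chaperone of BiP, had 147, 235, 120 and 71.3 TPM against 27.4 to 61.7 TPM. Of 6 tested senescence genes 2 were higher, among them WRKY53, with 62.3, 69.8, 95.4 and 11.1 TPM against 3.25 to 8.73 TPM, and the other, SAG13, was lost without homozygous replicate 3 or Col-0 t2 replicate 1 or 3.

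Mitotic genes were higher in every homozygous seedling. Of 18 members 15 were higher and none lower, with medians of 0.80 and 0.93, where 19.8% of all tested genes were higher. With all 34 samples in the model 10 were higher, and in the test against a minimum fold change of 1.5, 6 were. The list summed to 264.3, 245.1, 183.2 and 300.8 TPM against 89.65 to 165.1 TPM (median 110.6) in Col-0. CDC20.1 (AT4G33270), an activator of the anaphase-promoting complex, had 57.5, 55.6, 33.2 and 49.9 TPM against 12.8 to 28.4 TPM (2.46-fold and 2.83-fold higher with log2 SE of 0.22 and 0.25, adjusted p = 0.000673 and 0.000519). KNOLLE, the syntaxin of the cell plate, had 42.9, 40.6, 28.1 and 49.7 TPM against 11.98 to 25.3 TPM. AUR1, an Aurora kinase, and CYCB1;2, a mitotic cyclin, were higher by 1.08 and 0.79 against t1 and by 1.15 and 1.01 against t2. These 4 genes were highest in replicate 4 or 1 and lowest in replicate 3, an order unlike that of the defence genes.

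Of 11 DNA replication genes only 1 was called, CDC6, which loads the replicative helicase, at 4.45 to 7.33 TPM against 1.67 to 2.54 TPM. The DNA replication list had medians of 0.09 and −0.11, near the median over all tested genes.

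The DNA damage list had 5 of 11 members higher and none lower. SOG1, the transcription factor at the head of the plant DNA damage response, had 13.5, 14.4, 13.4 and 10.6 TPM against 3.70 to 6.80 TPM in Col-0, with log2 fold changes of 1.01 ± 0.12 and 1.37 ± 0.14 (adjusted p = 7.19e-05 and 1.81e-05). Its target SMR7, an inhibitor of cyclin-dependent kinases, had 10.09, 8.09, 8.57 and 10.9 TPM against 1.14 to 2.66 TPM (2.15 ± 0.28 and 2.61 ± 0.33). PARP2, a poly(ADP-ribose) polymerase, had 9.20, 9.79, 8.51 and 8.20 TPM against 2.05 to 3.51 TPM. In contrast to the defence genes the 4 seedlings were close to each other, with a list sum of 63.5 to 67.9 TPM against 25.04 to 35.02 TPM in Col-0.

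**Figure D3:**
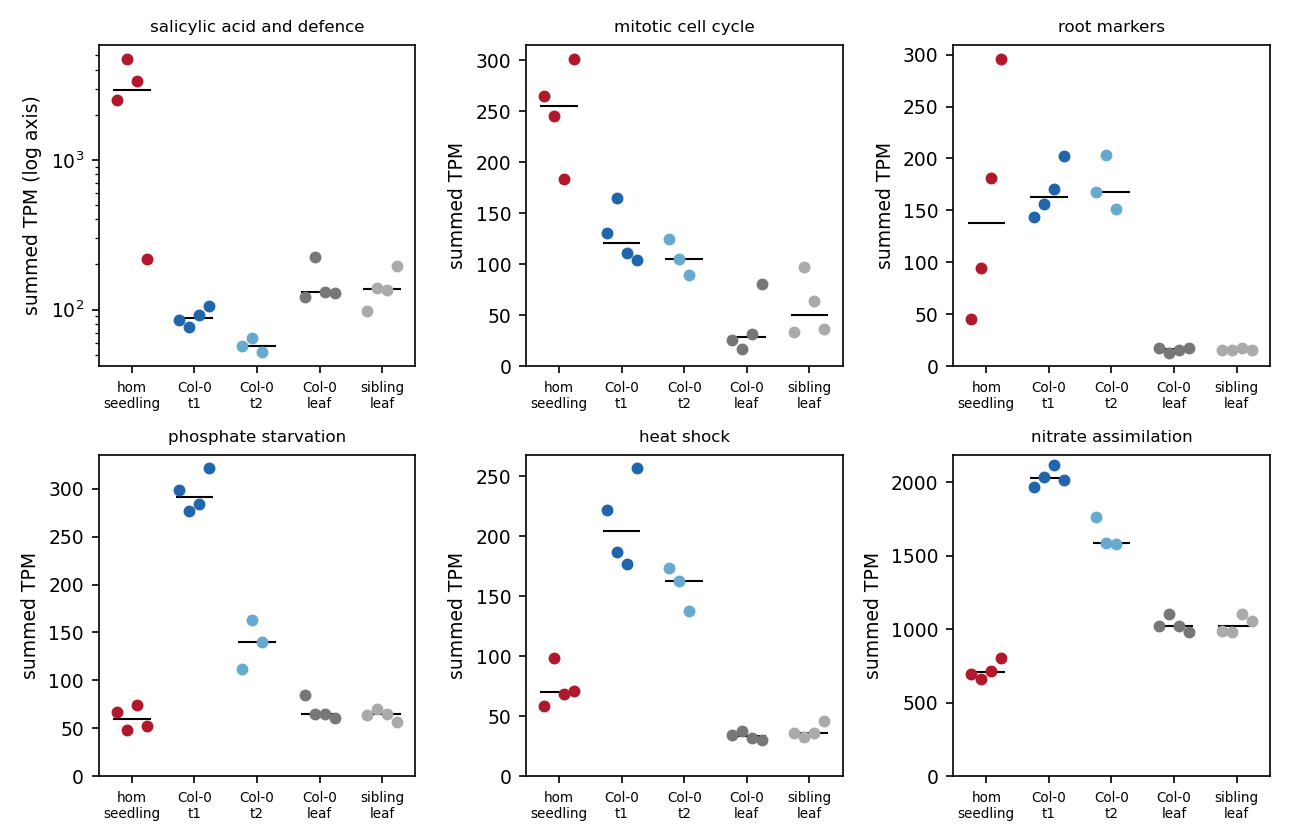
Summed TPM of 6 gene lists in each library, with a horizontal bar at the group median. Groups are homozygous seedlings (n = 4), Col-0 seedlings at t1 (n = 4) and t2 (n = 3), and leaves of Col-0 and wild-type siblings (n = 4 each), and the axis of the defence panel alone is logarithmic. Homozygous replicate 4 is low for defence (218.4 TPM) and high for root markers (295 TPM), and the phosphate panel shows the homozygous seedlings at the level of leaves.

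Of 13 tested genes of developmental phase and flowering, 6 were higher, 1 was lower and 6 were not called. SOC1, a flowering integrator, had 104, 102, 76.5 and 41.8 TPM against 18.3 to 26.2 TPM in Col-0 seedlings and 52.7 to 78.6 TPM in Col-0 leaves. FUL, a MADS-box gene of the reproductive transition, had 1.96, 5.32, 3.196 and 2.25 TPM against 0.146 to 0.495 TPM. FLC, a repressor of flowering, was the lower member, at 0.504, 0.467, 0.749 and 0.827 TPM against 1.38 to 4.05 TPM, with log2 fold changes of −2.52 ± 0.26 and −1.81 ± 0.27 (adjusted p = 2.64e-05 and 0.000304). TEM1, another flowering repressor, was higher, with 182, 211, 240 and 133 TPM against 41.2 to 55.8 TPM (1.92 ± 0.20 and 1.84 ± 0.22). SPL9, which promotes adult leaf traits, was higher by 1.28 and 1.51 on the log2 scale.

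Shoot meristem and leaf polarity genes were called in shares near or below those of all tested genes (19.8% higher, 18.0% lower). The summed level of the shoot meristem list was still 496.6, 344.3, 332.1 and 691.8 TPM in homozygous replicates 1 to 4. It was 154.7 to 287.3 TPM in the Col-0 pools, without overlap, and 44.7 to 145.7 TPM in Col-0 leaves. ANT, which promotes organ growth, had at least 11.9 TPM in each homozygous seedling against 5.31 TPM or more and a median of 6.35 TPM in Col-0, with no overlap, and LOB, an organ boundary gene, had 0.916, 0.713, 1.29 and 1.15 TPM against 3.21 to 11.2 TPM. In all 3 of 15 shoot meristem genes were higher and 1 lower, and 3 of 15 leaf polarity genes were higher (KAN3, YAB2 and ARF3) and 2 lower (KAN2 and YAB5), with KAN2 and YAB2 lost in 6 and 7 of the 11 fits that left out 1 library. STM, a marker of the meristem itself, was not called, at 2.92 to 4.88 TPM against 2.46 to 3.93 TPM in Col-0 seedlings and 0.0732 to 0.107 TPM in Col-0 leaves. Of 8 stomatal genes 1 was called, SDD1, lost without homozygous replicate 1 or 4 or Col-0 t2 replicate 2 or 3, and of 9 cytokinin response regulators ARR4 and ARR5 were higher and none lower (1 without homozygous replicate 4).

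Phosphate starvation genes were lower. Plants short of phosphate switch on transporters, phosphatases and enzymes that replace phospholipids with sulfo- and galactolipids, through PHR1, which binds the P1BS motif. Of 9 members 8 were lower and none higher, where 18.0% of all tested genes were lower, with medians of −3.31 and −2.40. The list summed to 67.3, 48.4, 74.6 and 52.7 TPM in the homozygous seedlings, to 277.2 to 322.1 TPM in Col-0 at t1, to 112.2 to 163.5 TPM at t2 and to 60.4 to 84.2 TPM in Col-0 leaves. The homozygous seedlings thus lay below the Col-0 seedlings and near the leaf range, and the Col-0 seedlings differed between time points. The root marker sum was 45.8, 94.5, 181 and 295 TPM in homozygous replicates 1 to 4, the order in which the phosphate sums are given. The parts of root content and of growth medium in the phosphate difference were not tested.

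PHT1;4, a phosphate transporter, had 1.49, 1.97, 2.38 and 2.46 TPM against 7.997 to 21.8 TPM (median 19.2) in Col-0, with log2 fold changes of −3.31 ± 0.16 (adjusted p = 2.46e-07) and −2.42 ± 0.17 (adjusted p = 1.38e-06). PECP1 (AT1G17710), a phosphatase that frees phosphate from lipid head groups, had 0.0490 to 0.292 TPM against 3.49 to 11.03 TPM. SQD1 and SQD2, which make sulfolipid, had log2 fold changes of −1.77 and −2.24 against t1 and of −0.91 and −1.56 against t2. Outside the list, IPS1, a noncoding RNA that soaks up miR399 during phosphate starvation, was among the 12 largest decreases, with 0, 0.187, 0.173 and 0.452 TPM against 55.6 to 126 TPM. AT5G03545, annotated as expressed in response to phosphate starvation, was another, with 1.201, 1.51, 10.2 and 6.39 TPM against 302 to 485 TPM and log2 fold changes of −6.39 ± 0.46 and −6.52 ± 0.47. Both were low in leaves too, where Col-0 had 0 to 1.66 and 3.52 to 15.04 TPM.

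P1BS, searched as GNATATNC on both strands, was present in the window of 5 of 9 list members (55.6%) and in 6.24% of all windows. SPX3, which encodes an inhibitor of PHR1, had the most matches of the list (2), shown in capitals in its window on the plus strand of TAIR10.1 at chr2:18606160-18606459.
SPX3: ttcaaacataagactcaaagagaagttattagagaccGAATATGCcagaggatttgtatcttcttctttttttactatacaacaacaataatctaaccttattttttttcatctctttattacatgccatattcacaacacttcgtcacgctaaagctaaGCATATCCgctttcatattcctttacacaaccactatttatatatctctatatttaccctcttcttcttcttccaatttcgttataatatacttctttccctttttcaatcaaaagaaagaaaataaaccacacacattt

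Genes of nitrate assimilation were lower as well, 5 of 6 with none higher, and summed to 662.2 to 806.7 TPM against 1581 to 2115 TPM in Col-0 seedlings and 977.5 to 1102 TPM in Col-0 leaves. NIA2, the main nitrate reductase, had 133, 143, 129 and 140 TPM against 290 to 467 TPM (log2 fold changes −1.64 ± 0.10 and −1.41 ± 0.11, adjusted p = 1.21e-06 and 3.07e-06). NIR1, nitrite reductase, had 32.8, 31.4, 41.2 and 53.9 TPM against 64.6 to 158 TPM. GLN2, the plastid glutamine synthetase, had 339, 230, 241 and 284 TPM against 854 to 1009 TPM. The transporter NRT1.1 was lower, with log2 fold changes of −1.76 and −1.85, but NRT2.1, a high-affinity nitrate transporter counted among the root markers, was higher, with 4.53, 8.45, 25.4 and 5.61 TPM against 0.121 to 0.727 TPM (4.43 ± 0.68 and 4.82 ± 0.79).

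Of 10 iron genes 1 was lower, BHLH39, and 1 higher, BHLH101, both transcription factors of iron uptake, and the second call was lost in 8 of the 11 fits that left out 1 library, while 2 were lower without homozygous replicate 3 or 4. IRT1, the main iron transporter of the root, ranged from 0.321 to 21.7 TPM over the homozygous seedlings and passed neither test. Among 11 genes of low energy, 4 were lower and 1 was higher, where 18.0% and 19.8% of all tested genes were lower and higher. IVD, an enzyme of branched-chain amino acid breakdown, had 11.4 to 14.3 TPM against 24.8 to 41.7 TPM, and TPS8, a class II trehalose phosphate synthase homologue, was the higher one, with 56.9 to 64.4 TPM against 10.9 to 21.9 TPM.

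Heat shock genes were lower in 10 of 18 and higher in none (1 without homozygous replicate 3), with medians of −1.88 and −1.33. Small heat shock proteins bind unfolding proteins, and HSP70 and HSP101 refold them. HSP70 (AT3G12580) had 1.63, 2.56, 1.04 and 0.995 TPM against 23.9 to 41.9 TPM (median 31.2) in Col-0, with log2 fold changes of −4.48 ± 0.34 and −4.47 ± 0.34 (adjusted p = 3.96e-06 and 3.71e-06). HSP17.4 (AT3G46230) had 0.430, 0.710, 0.156 and 0.203 TPM against 9.08 to 26.5 TPM (−5.40 ± 0.47 and −5.28 ± 0.48). HSP101 had 1.81 to 2.58 TPM against 3.76 to 8.503 TPM. The list summed to 58.4 to 98.4 TPM in homozygous seedlings, 137.5 to 256.6 TPM in Col-0 seedlings and 30.1 to 37.2 TPM in Col-0 leaves. The Col-0 seedlings thus stood above the homozygous seedlings, which stood above the Col-0 leaves. The part of growth conditions in this was not tested.

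Heat shock elements, searched as GAA, TTC and GAA with 2 bases between the units on both strands, were found in 6 of 20 windows of the list (30.0%) and in 0.483% of all windows. HSP17.4, the list member with the most matches and one of the 12 largest decreases in the seedlings, had 2, in capitals in its window on the minus strand of TAIR10.1 at chr3:16984818-16985117.
HSP17.4: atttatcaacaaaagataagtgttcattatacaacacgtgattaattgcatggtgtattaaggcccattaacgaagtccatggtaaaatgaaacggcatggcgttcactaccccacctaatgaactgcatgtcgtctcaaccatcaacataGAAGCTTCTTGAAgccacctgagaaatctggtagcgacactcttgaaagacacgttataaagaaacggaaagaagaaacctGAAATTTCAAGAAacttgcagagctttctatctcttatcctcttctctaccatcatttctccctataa

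Of 10 mitochondrial stress genes 5 were lower and 2 higher, where 18.0% and 19.8% of all tested genes were lower and higher. HSP23.5, a mitochondrial small heat shock protein, had 0.988, 1.45, 0.648 and 0.886 TPM against 11.7 to 64.3 TPM, and UGT74E2, a glucosyltransferase of indole-3-butyric acid, had 0.420 to 1.26 TPM against 13.8 to 104 TPM. AOX1A, the alternative oxidase, was lower (log2 fold changes −0.79 and −0.63) with an overlap of the groups, and lost its call in 5 of the 11 fits without 1 library. The higher members were OM66, an outer membrane AAA protein, at 7.78 to 28.4 TPM against 0.600 to 4.19 TPM, and NAC017, at 26.9 to 33.7 TPM against 15.2 to 20.7 TPM. Only 2 or 3 members were called lower without homozygous replicate 1, 3 or 4, Col-0 t1 replicate 2 or 4, or Col-0 t2 replicate 2 or 3.

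Flavonoid genes were lower in 12 of 23 and higher in 6, where 18.0% and 19.8% of all tested genes were lower and higher. Only 2 were higher with all 34 samples in the model, and 2 in the test against a minimum fold change of 1.5. The lower ones included CHS, chalcone synthase, an early step of the pathway. It had 9.22, 6.93, 9.72 and 14.98 TPM against 141.9 to 226 TPM (median 182) in Col-0. Its log2 fold changes were −4.20 ± 0.22 (adjusted p = 3.85e-07) and −4.31 ± 0.23 (adjusted p = 2.76e-07). FLS1, flavonol synthase, had 2.66, 2.97, 2.12 and 3.92 TPM against 21.7 to 65.9 TPM, and F3H had 4.58 to 8.53 TPM against 34.04 to 70.1 TPM. In Col-0 leaves the same 3 genes had 8.58 to 22.03, 2.58 to 6.69 and 3.44 to 5.82 TPM. Among the higher ones were 5MAT, a malonyltransferase of anthocyanins, at 0.966 to 2.81 TPM against 0.0453 to 0.404 TPM, and TTG1, a WD40 regulator of anthocyanin and hair cell fate, at 31.0 to 47.0 TPM against 18.3 to 21.8 TPM.

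Photosynthesis genes depended on the hour. The antenna and Rubisco list summed to 77399 to 137455 TPM in homozygous seedlings, 58758 to 68472 TPM in Col-0 at t1, 116642 to 129068 TPM at t2 and 204526 to 235005 TPM in Col-0 leaves, and of 21 members 1 was higher and 3 were lower at both times, while 14 were higher and 5 lower when the Col-0 time points were averaged. The lower ones were 3 of the small subunit genes of Rubisco. RBCS1B had 1630, 1044, 1214 and 1769 TPM against 5745 to 7291 TPM (log2 fold changes −2.32 ± 0.17 and −2.28 ± 0.18), and RBCS2B had 1642, 1023, 1071 and 1760 TPM against 7000 to 8257 TPM. RBCS3B was lower by less (−0.61 ± 0.16 and −1.101 ± 0.17). These genes are near-identical neighbours on chromosome 5, among which reads can be split uncertainly. LHCB1.4, an antenna protein of photosystem II, was the higher member, at 2878 to 5266 TPM against 351 to 1422 TPM. LHCB1.4 lost its call without Col-0 t2 replicate 1 or 2, and 5 of the 21 were lower without homozygous replicate 1. In chlorophyll synthesis PORB was higher and CHLG lower of 14 genes, and 4 were lower without homozygous replicate 1.

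Clock genes with a morning peak had medians of 3.41 against t1 and −1.90 against t2, and those with an evening peak −0.57 and 2.43. CCA1, a core morning gene, had 7.75 to 13.0 TPM in homozygous seedlings, 8.14 to 10.05 TPM in Col-0 leaves and 0.302 to 112 TPM over the Col-0 pools of both times, so that the pAP146 samples lay between the time points. Of 9 morning genes 1 was higher against both time points, and of 10 evening genes 3 were, with none lower. Of all tested genes, 19.8% were higher and 18.0% lower. The clock genes called higher were PRR7, PRR5, GI and FKF1. PRR5 had 49.6 to 60.5 TPM, 37.0 to 48.3 TPM in Col-0 leaves and 1.35 to 11.7 TPM in the Col-0 pools, and GI, a regulator of flowering by day length, had 15.1 to 21.6 TPM, 13.9 to 17.2 TPM and 3.82 to 5.13 TPM in the same order. The hour of collection cannot be told apart from the genotype here.

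Beside the lists that follow here, 18.0% of all tested genes were lower and 19.8% higher. Of 20 jasmonate genes 3 were lower, AOC1, JAZ6 and PDF1.2, and 1 was higher (2 without homozygous replicate 4). The higher one was VSP2, a storage protein induced by jasmonate, at 9.56 to 23.2 TPM against 0.577 to 4.23 TPM. AOC1, an enzyme of jasmonate synthesis, had 11.6, 4.80, 14.7 and 15.3 TPM against 36.2 to 87.3 TPM. Of 18 cold and abscisic acid genes 5 were higher and 3 lower, with COR15A, a chloroplast cold protein, at 41.2, 6.51, 7.43 and 54.3 TPM against 0.735 to 3.65 TPM and 143 to 272 TPM in Col-0 leaves. Of 8 wax genes KCS6 and CER2, which act in fatty acid elongation, were lower (4 of the 8 without homozygous replicate 4) and none higher (1 without homozygous replicate 3), and of 21 glucosinolate genes 2 were higher and 2 lower, among them MYB51, a regulator of indole glucosinolates, at 17.7 to 69.5 TPM against 4.90 to 19.5 TPM. SOT17 and TGG2 of that list lost their calls in 9 and 7 of the 11 fits without 1 library, and 3 cold genes were higher without Col-0 t2 replicate 1. Only 1 of 17 seed and embryo genes could be tested, FUS3, at 0.246 to 0.405 TPM against at most 0.0171 TPM. With Col-0 seedlings that low, FUS3 could pass the count filter only through the homozygous group, so the direction of its call was fixed beforehand. Against Col-0 leaves of the pAP146 experiment its log2 fold change was −1.39.

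Among the 12 largest decreases outside the deletion, AT4G12520, a proline-rich lipid transfer-like protein, had no count in any homozygous seedling and 73.8 to 132 TPM in Col-0, at least 361-fold lower, and none in the leaves. Its neighbour AT4G12510 is a near-identical copy and had 0, 14.0, 15.99 and 132 TPM against 28.7 to 52.9 TPM, so the split of reads between the 2 is uncertain. UMAMIT33, an amino acid transporter, had 0.0179 to 0.385 TPM against at least 6.06 TPM, and CRK30, a receptor-like kinase, had 0.151 to 0.428 TPM against 12.7 to 24.2 TPM. Col-0 leaves of the pAP146 experiment were low for both, at 0.0308 to 0.286 TPM and 0.474 to 1.98 TPM. Beside those already named and RGF6, whose values follow with the sibling leaves, the others were IDL1, a peptide related to the abscission signal IDA, AT1G12805 and PDF1.3, a defensin, with highest homozygous values of 0.160, 0 and 1.83 TPM and lowest Col-0 values of 3.98, 2.93 and 15.3 TPM.

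Leaves of the pAP146 experiment also allow a comparison without the deletion. Wild-type siblings, which descend from the same T2 plant but lack the deletion, were compared with Col-0 leaves. Neither of these groups is in the seedling comparison. The fit held all 15 samples of the pAP146 experiment, so the homozygous seedlings entered its count filter, normalization and estimates of variability. The test between siblings and Col-0 leaves was therefore not independent of the homozygous libraries. Only 3 of 20833 genes were called there (0.0144%), and all 3 were also called in the same direction in the homozygous seedlings, which is 100% of the sibling calls and 0.0375% of the 7996 homozygous calls. All 3 lie on chromosome 4, while the deletion is on chromosome 3.

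RGF6 (AT4G16515, chr4:9305166-9305845 of TAIR10.1, minus strand), a peptide hormone of the root meristem factor family, had 0.118, 0.0600, 0.0571 and 0.148 TPM in homozygous seedlings and 8.25 to 13.9 TPM in Col-0 seedlings. Siblings had 0 to 0.159 TPM and heterozygotes none, where Col-0 leaves had 4.07 to 5.97 TPM, and the seedlings of the other deletion lines, pAP141 and pAP142, had 6.56 to 19.1 TPM. Its log2 fold changes were −6.68 ± 0.30 (adjusted p = 1.42e-07) and −7.19 ± 0.30 (adjusted p = 5.82e-08) in homozygous seedlings and −6.70 ± 0.72 (adjusted p = 0.00645) in sibling leaves.

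AT4G08190 (chr4:5174523-5175476, minus strand), a P-loop nucleoside triphosphate hydrolase, showed the reverse, with 10.2, 8.36, 8.76 and 8.84 TPM in homozygous seedlings, 7.78 to 11.2 TPM in siblings and 8.03 to 9.61 TPM in heterozygotes. No Col-0 seedling or leaf library exceeded 0.121 TPM. The log2 fold change was 7.65 ± 0.61 (adjusted p = 1.67e-05) against t1, and 8.61 ± 0.46 (adjusted p = 3.24e-07) in sibling leaves. AT4G03157 (chr4:1396953-1397351, minus strand), an uncharacterized gene, had 11.3, 4.69, 8.72 and 14.3 TPM in homozygous seedlings, 5.24 to 12.4 TPM in siblings and 4.21 to 13.5 TPM in heterozygotes, no count in any Col-0 library and at most 0.571 TPM in the pAP141 and pAP142 seedlings. It was at least 9.47-fold higher than Col-0 seedlings at t1. For each of these 3 genes the homozygous, heterozygous and sibling samples lay on the same side of every Col-0 library, whether or not they carried the deletion.

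**Figure D4:**
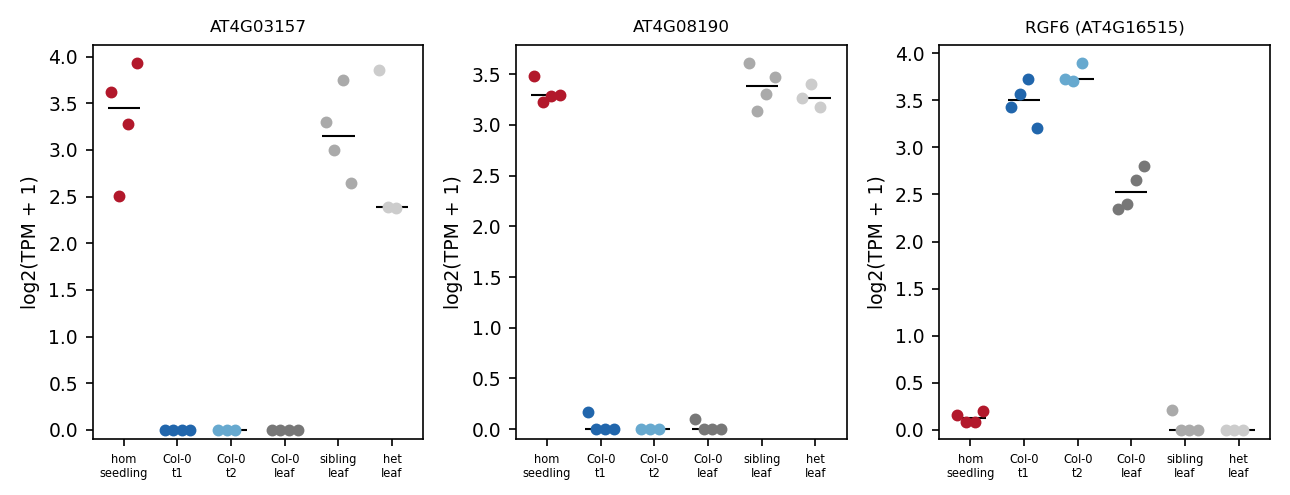
Level of the 3 genes called between wild-type siblings and Col-0 leaves, as log2(TPM + 1) for each library, with a bar at the group median. Groups are homozygous seedlings (n = 4), Col-0 seedlings at t1 (n = 4) and t2 (n = 3), and leaves of Col-0 (n = 4), siblings (n = 4) and heterozygotes (n = 3). The pAP146 groups lie together and apart from every Col-0 library in each panel.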

How the data were processed

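Whole seedlings were measured by stranded RNA-seq of poly(A) RNA. Per the labels and methods, the authors used Salmon 1.6.0 on the Araport11 primary transcriptome, and HISAT2 2.2.1 and DESeq2 1.44.0 for inspection and testing. The estimated count of each gene, as deposited, carries no normalization and was rounded here. TPM, as deposited, divides these by effective coding length and scales each library to 1 sum. Reads of near-identical genes can be split between them.

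Counts of the 11 seedling libraries (26640177 to 42013739 per library) entered 1 model in 3 groups with edgeR 4.0.16 (R 4.3.3), after filterByExpr, TMM normalization and a robust quasi-likelihood fit, and each contrast was adjusted over 21194 genes. A gene was called where the adjusted p was under 0.05 against both time points with the same sign. Leaf contrasts came from a separate fit to the 15 samples of the pAP146 experiment, with 20833 genes. Summed TPM were compared with exact permutation tests. Intervals of the fold changes are standard errors. Replicates are separate samples of the labels, and nothing was found to be deposited more than once. Replicate numbers did not pair the samples. The script was tested on simulated data.

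The genes named are deleted genes of at least 1 TPM in Col-0, their retained paralogues as the study lists them, 10 flanking genes on each side, the 12 largest changes each way with at least 5 TPM and no overlap, and up to 6 members of each list in its main direction and 2 in the other by adjusted p. Other members (ICS1, EDS1, NPR1, ACD6, COBL9, IRT1, STM and CCA1, and AT4G12510 and MEE38 outside the lists) and the 3 sibling genes were named after their values were seen. The members and lists were chosen with earlier results of these data known. Coordinates and promoter windows are those of TAIR10.1, which shares them with the genome of the authors' annotation.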

Additional observations from a re-analysis of the deposited data

Results flagged for a closer look

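Of 114 groups of 4 homozygous or Col-0 t1 values examined with Dixon's test for a sample far from the others, 5 were marked, where chance marks about 1 in 20. The phase change and flowering list was lowest in homozygous replicate 4, at 290.8 TPM, with the other 3 homozygous seedlings at 398.5 to 407.9 TPM, and all 4 were above the Col-0 seedlings. PDF1.3 was highest in homozygous replicate 3, at 1.83 TPM, with the others at 0 to 0.187 TPM. Among Col-0 pools at t1, 1 pool held 5.69 TPM of the seed and embryo list, 1 pool held 0.0931 TPM of AT5G63225 and 1 pool held 0.121 TPM of AT4G08190, where the other pools of that time had none of either gene.

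The comparisons with t1 and t2 differed in sign for 410 called genes, of which 214 were higher than t1 and lower than t2 and 196 the reverse. The difference between the 2 comparisons was not tested for these genes.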

How the results depend on the processing

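The counts of genes called against both time points stayed within 1.5 times of 4189 higher and 3807 lower under size factors of DESeq2 in edgeR (4268 and 3764), without a filter on counts (4369 and 3551), with length offsets (4198 and 3811), with all 34 samples in the model (4625 and 3982) and with DESeq2 (4548 and 4012). A test against a minimum fold change of 1.5 called 1603 and 1206, with 2367 higher and 1866 lower against t1 and 2531 and 2135 against t2, and Col-0 averaged over the time points gave 6424 and 5817, since that fit asks for 1 test in place of 2. List counts moved too, for example to 14 higher and 5 lower in antenna and Rubisco, 8 and 1 in evening clock, 4 and 3 in morning clock, 3 and 4 in chlorophyll and 4 and 6 in jasmonate genes. Leaving out each replicate in turn gave 3408 to 4573 higher and 3208 to 4149 lower against both, 5004 to 6155 and 4625 to 5844 against t1, and 4514 to 6040 and 4516 to 5770 against t2. Replicate numbers did not pair the samples, since same-numbered samples of different groups correlated at −0.0259 on average, and a fit with the replicate number as a block called 3627 higher and 3581 lower.

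The total of the deleted genes was −336.7 to −328.0 TPM against t1 and −352.6 to −345.4 TPM against t2 when each replicate was left out, with an exact p of 0.05714, the smallest possible with 7 samples, against t1. The paralogue total was −63.3 to −45.6 TPM against t1 (exact p = 0.05714) and 8.94 to 26.7 TPM against t2. It was −29.8 against t1 (exact p = 0.1429) and −4.72 against t2 as TMM-normalized CPM. Against t2 it was −25.0 TPM without JAZ12 and −0.19 as a mean of log2(TPM + 1), each with an exact permutation p of 0.05714, the smallest possible. Without AT5G20790, an alternative chosen after seeing the data, it was 24.7 TPM against t1 and 53.4 TPM against t2. The direction of that total against t2 thus depended on the unit and on JAZ12, and its call against t1 on the unit and on AT5G20790.

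Of 6632 fold changes of 175 named genes under all alternatives, 6357 kept their direction and side of the threshold, 230 no longer passed, 14 newly passed and 31 changed sign, all of the last in genes not called. As log2 fold changes, AT5G20810 went to 0.0065 against t1 with DESeq2, 0.010 with its size factors, 0.012 with all 34 samples and 0.021 without a filter, and to 0.011 against t2 without a filter. With the time points averaged, AT5G20840 went to 0.050 against t2, AT5G20885 to −0.052 against t1 (−0.018 with the replicate block) and AT3G42860 to 0.085 against t1. Leaving out 1 replicate at a time gave AT5G20810 −0.17 to 0.21 and −0.17 to 0.20, AT5G20885 −0.12 to 0.15 and −0.23 to 0.040 (against t1 and t2), SUS1 −0.019 to 0.34 and AAO3 −0.050 to 0.13 against t1, and AT5G20860 −0.73 to 0.046 against t2.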
